A study of Schizosaccharomyces pombe with 2 samples.

Results

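SNARE proteins are the membrane-anchored proteins that pair across a vesicle and its target and draw the membranes together until they fuse. Each step of traffic uses its own combination, and afterwards the adaptor alpha-SNAP and the ATPase NSF pull the spent complexes apart so that they can be used again. In fission yeast the same machinery also builds the forespore membrane, the new membrane that encloses each nucleus at the end of meiosis. The genes described here are 8 SNARE genes and the alpha-SNAP gene of Schizosaccharomyces pombe, chosen by name: bet1 (SPAC23C4.13), bos1 (SPAP14E8.03), sec22 (SPBC2A9.08c), ykt6 (SPBC13G1.11), vti1 (SPBC3B9.10), sft1 (SPAC31A2.13c), syb1 (SPAC6G9.11), psy1 (SPCC825.03c) and sec17 (SPAC959.02). Of these 9 genes, 8 have introns in the table, 18 introns of 5374 in all. The plasma membrane syntaxin gene psy1, whose product is a component of the forespore membrane, has a single exon in the RefSeq annotation and 0 introns in the table.

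The cells carried pat1_as2, an allele of the kinase gene that holds back meiosis, together with prp2-1, a heat-sensitive allele of the gene encoding U2AF65, the U2AF subunit that binds the pyrimidine-rich tract before the 3' splice site. They were starved of nitrogen to stop in G1 and then driven chemically into synchronous meiosis, and the library titles give 8 h. As meiosis I began, 1 culture was parted between 25 °C, the permissive temperature of prp2-1, and 34 °C, the restrictive one, and polyA RNA was sequenced 1 h after that. Each temperature has 1 library, both carry both alleles, and no strain with normal Prp2 is among them, so heat and loss of Prp2 cannot be told apart and every comparison is between these libraries.

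For each intron the deposited table counts spliced reads, taken here to join the exons, and unspliced reads, taken here to retain the intron. What made a read unspliced is not given. Spliced reads may come from transcripts spliced before the culture was parted, and these could not be told apart from later ones. The libraries held 636989 reads at 25 °C and 493659 at 34 °C, of which 6.56% and 39.9% were unspliced. Introns of spo6, a gene of the second meiotic division, had more reads at 34 °C (8250 to 17011) than at 25 °C (3468 to 7403), whereas those of spo4, mes1, mfr1 and meu14, other meiotic genes, had fewer (391 to 2324 beside 914 to 4801), and those of crp79 went both ways. The gene prp2 itself has 0 introns in the table. An intron was measured when it had at least 20 reads in each library, which held for 2508 introns and for 16 of the 18 here. The 2 others, introns 1 and 3 of sec22, were too shallow. The unspliced share is the unspliced reads as a percentage of all reads of the intron. Fisher's exact test, two-sided, compared it between the libraries. Its p was adjusted by Benjamini and Hochberg's method for all measured introns, and an intron is called at an adjusted p under 0.05. Intervals of shares are exact 95% binomial intervals (Clopper-Pearson) and cover counting error only, since reads may be copies of the same molecule.

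The unspliced share rose in 13 of the 16 measured SNARE and SNAP introns, or 81.3%, and fell in 0. Over all measured introns 82.6% were called higher and 0% lower, at an unadjusted p under 0.05 by the same exact test 2099 higher and 0 lower, so the count of calls is near that of the table as a whole. Sizes were spread unevenly. The median change was 11.4 percentage points (quartiles 6.95 and 39.8), beside 32.3 points (15.2 and 51.0) for all measured introns. The 16 introns belong to 8 genes, with 5 of them in vti1, and introns of 1 gene are not independent. A change over 30 points was seen in 6 of the 16 introns, intron 1 of bos1, ykt6 and sft1, intron 5 of vti1 and introns 1 and 2 of sec17, beside 53.0% of all measured introns. The other 10 differed by 12.7 points or less. In the 25 °C library the shares ran from 0.350% to 13.8%, with a median of 3.61% beside 5.6% for all measured introns. The 3 introns without a call were intron 2 of bet1, intron 2 of sec22 and intron 1 of vti1.

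**Figure D1:**
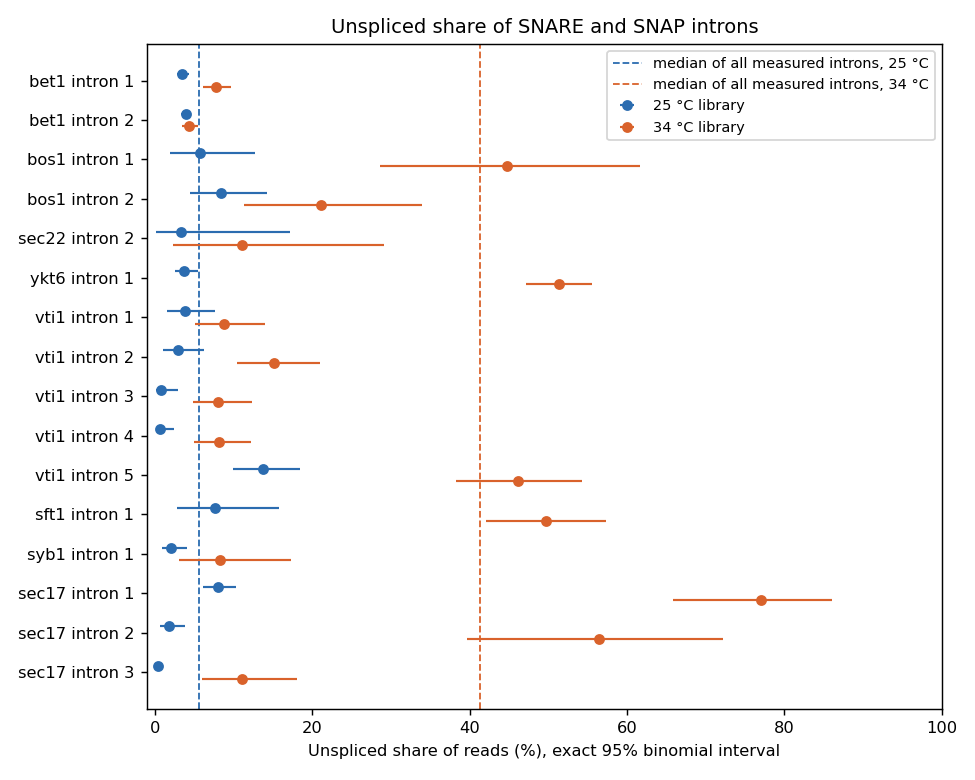
Unspliced share of reads in percent for the 16 measured SNARE and SNAP introns, at 25 °C (blue) and 34 °C (orange), with exact 95% binomial intervals; dashed lines are the medians of all 2508 measured introns, 5.6% and 41.4%. At 34 °C only sec17 introns 1 and 2, ykt6, sft1, vti1 intron 5 and bos1 intron 1 lie to the right of the orange line.

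The first group acts between the endoplasmic reticulum and the Golgi. In budding yeast Bet1, Bos1 and Sec22 assemble with the syntaxin Sed5 into the SNARE complex of that step. The introns of bet1 are shown because they are the deepest of the set and among the least changed. They lie in the coding part, at chrI:1051740-1051782 and chrI:1051922-1051970 on the plus strand of ASM294v3, the RefSeq assembly. Here and below the letters run 5' to 3' along the transcript, and capitals mark the first 6 bases (the 5' splice site), the last 3 bases (the 3' splice site) and each match to a form of the branch site motif. The forms searched, on the transcript strand between those ends and within the last 60 bases, were CTAAC and its form CTAAT, and those with G as the third letter, CTGAC and its form CTGAT.
bet1 intron 1: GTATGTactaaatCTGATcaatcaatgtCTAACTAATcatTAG
bet1 intron 2: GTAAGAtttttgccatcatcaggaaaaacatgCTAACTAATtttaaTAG
In each of them CTAAC and CTAAT overlap by 1 letter.

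In bet1 the unspliced shares differed little in points between the libraries. Intron 1 had 80 unspliced and 2228 spliced reads at 25 °C, and 74 and 878 at 34 °C. Its share rose from 3.47% (2.76 to 4.30) to 7.77% (6.15 to 9.66), a change of 4.31 points (Newcombe 95% interval 2.56 to 6.30, adjusted p = 9.53e-07, Fisher's exact test). Intron 2 had 188 unspliced and 4630 spliced reads at 25 °C, and 77 and 1679 at 34 °C. Its share was 3.90% (3.37 to 4.49) and 4.38% (3.48 to 5.45), a difference of 0.483 points (-0.559 to 1.66) that was not called. The interval, which covers counting error only, ends at 1.66 points. Of all measured introns, 2.91% had a smaller change. The log2 odds ratio between the libraries was higher in intron 1 than in intron 2 by 1.05 with an SE of 0.311. That difference was called. An annotated non-coding gene on the opposite strand, SPNCRNA.2460, overlaps both introns. Whether strand was used in counting is not given, and the part of such reads in these shares was not tested.

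bos1, also overlapped on the opposite strand by a non-coding gene (SPNCRNA.2864), had far fewer reads than bet1 and, at 34 °C, higher unspliced shares. Intron 1 (chrI:1925126-1925176) had 5 unspliced and 83 spliced reads at 25 °C, and 17 and 21 at 34 °C. Its share rose from 5.68% (1.87 to 12.8) to 44.7% (28.6 to 61.7), with an adjusted p of 1.28e-06 by Fisher's exact test. Intron 2 (chrI:1925274-1925345) had 12 unspliced reads in both libraries, but 131 spliced reads at 25 °C and 45 at 34 °C. Its share rose from 8.39% to 21.1%, by 12.7 points (2.36 to 25.4). Scaled by library totals, the unspliced reads of intron 2 had a ratio of 1.29 (0.530 to 3.14) between 34 and 25 °C, and its spliced reads 0.443 (0.309 to 0.626).

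sec22 was too shallow for a firm statement. Its middle intron, at chrII:2962200-2962264 on the minus strand, had 30 reads at 25 °C, 1 of them unspliced, and 27 at 34 °C, 3 of them unspliced. The difference of 7.78 points was not called, and its interval of -7.41 to 24.9 points takes in both no change and a change near the median of all introns. Intron 1 had 0 unspliced of 12 reads at 25 °C, which allows a share of up to 25% by the rule of 3 counts of the total and 26.5% by the exact interval, and 5 of 18 at 34 °C. Intron 3 had 2 of 7 and 2 of 5. No annotated exon of another gene overlaps the introns of sec22.

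The second group serves the Golgi, the endosomes and the vacuole. Ykt6 is an R-SNARE held to membranes by a lipid anchor, Sft1 a small SNARE of traffic within the Golgi in budding yeast, and Vti1 a Q-SNARE shared by several complexes of the Golgi, endosome and vacuole. The single introns of ykt6 (chrII:3750273-3750320, plus strand) and sft1 (chrI:414630-414683, minus strand) are shown because both begin with the same 6 bases as intron 1 of bet1, yet they were retained in about as many reads as were spliced.
ykt6 intron 1: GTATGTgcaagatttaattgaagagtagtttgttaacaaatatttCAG
sft1 intron 1: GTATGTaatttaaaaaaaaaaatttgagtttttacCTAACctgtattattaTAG
The ykt6 intron holds 0 matches to the branch motif in this window, and the sft1 intron 1 match.

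In ykt6 nearly every read was spliced at 25 °C and about as many were unspliced as spliced at 34 °C. There were 27 unspliced and 691 spliced reads at 25 °C, and 286 and 271 at 34 °C. The share rose from 3.76% (2.49 to 5.42) to 51.3% (47.1 to 55.6), a change of 47.6 points (43.1 to 51.9) with an adjusted p of 5.78e-91 by Fisher's exact test. In sft1 there were 6 unspliced and 73 spliced reads at 25 °C, and 88 and 89 at 34 °C. Its share rose from 7.59% (2.84 to 15.8) to 49.7% (42.1 to 57.3), by 42.1 points (31.3 to 50.5). The introns of ykt6 and sft1 therefore reached shares at 34 °C whose intervals overlap, from depths that differ. SPNCRNA.6266 overlaps the ykt6 intron on the opposite strand, and no annotated exon of another gene overlaps that of sft1.

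vti1 has 5 introns, all measured, and they did not respond alike in percentage points. No pair of them differed in the log odds ratio of the change. Introns 4 and 5, at chrII:4005640-4005803 and chrII:4005866-4005940 on the plus strand, are shown as the neighbours with the widest gap.
vti1 intron 4: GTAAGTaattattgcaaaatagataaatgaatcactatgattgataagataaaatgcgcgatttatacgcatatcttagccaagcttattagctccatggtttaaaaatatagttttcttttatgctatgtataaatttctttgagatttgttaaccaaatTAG
vti1 intron 5: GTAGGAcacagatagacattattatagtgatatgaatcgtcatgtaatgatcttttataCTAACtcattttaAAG
Intron 4 begins with a 5' splice site found in 674 of the measured introns and intron 5 with one found in 7. A score of bases 3 to 6, which sums the log2 of each base's frequency among all placed introns that begin with GT and end with AG, plus 0.001, over 0.25, was 6.11 for intron 4 and 0.193 for intron 5. The median of all measured introns was 4.12 (quartiles 3.07 and 6.11).

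Intron 4 of vti1 had 2 unspliced and 296 spliced reads at 25 °C, and 20 and 227 at 34 °C. Its share rose from 0.671% (0.0814 to 2.40) to 8.10% (5.02 to 12.2). Intron 5 had 38 unspliced and 238 spliced reads at 25 °C, and 73 and 85 at 34 °C, and its share rose from 13.8% (9.93 to 18.4) to 46.2% (38.2 to 54.3). Intron 5 was thus the least spliced intron of vti1 in both libraries, and none of its intervals overlaps that of another vti1 intron. Introns 2 and 3 rose by 12.2 points (6.75 to 18.1) and 7.18 points (3.61 to 11.5). Intron 1, the shortest of the set at 37 bases, went from 7 unspliced of 186 reads to 16 of 181, a difference of 5.08 points (0.0269 to 10.5) that was not called (adjusted p = 0.0633, Fisher's exact test). Reads of dad4, a gene of the kinetochore DASH complex on the opposite strand, could reach introns 2 to 5, which its exons overlap, and their part was not tested.

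The third group acts at the plasma membrane. Syb1, a synaptobrevin, is the R-SNARE of secretory vesicles and pairs there with syntaxin such as Psy1. Its single intron (chrI:3268513-3268576, plus strand) is shown because it stayed mostly spliced with a 5' splice site below the median score, 3.67.
syb1 intron 1: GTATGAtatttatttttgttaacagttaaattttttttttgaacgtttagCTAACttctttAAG
There were 8 unspliced and 375 spliced reads at 25 °C, and 6 and 66 at 34 °C. The share rose from 2.09% (0.906 to 4.07) to 8.33% (3.12 to 17.3), a change of 6.24 points (1.37 to 14.98, adjusted p = 0.0173, Fisher's exact test). Scaled by library totals, unspliced reads had a ratio of 0.968 (0.277 to 3.18), and spliced reads one of 0.227 (0.172 to 0.296). Over the 135 measured introns with the same first 6 bases the median change was 36.7 points (quartiles 21.9 and 57.9).

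The last gene, sec17, encodes alpha-SNAP, the adaptor through which the ATPase Sec18 (NSF) takes SNARE complexes apart. It held both the widest rises and the deepest losses of reads. Its introns, on the plus strand at chrI:3388274-3388316, chrI:3388435-3388475 and chrI:3388780-3388912, are free of annotated exons of other genes. They are shown because introns of 1 transcript differed so far.
sec17 intron 1: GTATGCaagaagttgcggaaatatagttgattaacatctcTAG
sec17 intron 2: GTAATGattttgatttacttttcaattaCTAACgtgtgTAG
sec17 intron 3: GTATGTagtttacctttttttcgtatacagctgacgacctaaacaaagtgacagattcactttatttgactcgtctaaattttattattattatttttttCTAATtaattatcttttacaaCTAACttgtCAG
Introns 1 and 2 are short, 43 and 41 bases, with 5' splice site scores of 3.07 and -1.08. Intron 3 has 133 bases and a score of 5.66.

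Intron 1 of sec17 had 55 unspliced and 629 spliced reads at 25 °C, and 57 and 17 at 34 °C. Its share rose from 8.04% (6.11 to 10.3) to 77.0% (65.8 to 86.0), by 69.0 points (58.0 to 77.3), and 93.2% of measured introns had a smaller change. Intron 2 had 6 unspliced and 336 spliced reads at 25 °C, and 22 and 17 at 34 °C, so its share rose from 1.75% (0.646 to 3.78) to 56.4% (39.6 to 72.2). Intron 3 had 5 unspliced and 1425 spliced reads at 25 °C, and 13 and 105 at 34 °C. Its share rose from 0.350% (0.114 to 0.814) to 11.0% (5.998 to 18.1), by 10.7 points (6.18 to 17.6). All 3 rises were called, with adjusted p of 7.27e-38, 3.10e-19 and 3.38e-11 by Fisher's exact test. At 34 °C most reads of intron 1 were unspliced and most of intron 3 were spliced, while the interval of intron 2 takes in equal numbers.

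Differences between introns of 1 gene were tested over the 15 pairs of measured introns in bet1, bos1, vti1 and sec17. By the log odds ratio of the change, 1 pair differed, that of bet1, beside 11.4% of 1825 pairs in the table (z of the difference, adjusted over all pairs). On the odds scale introns 1 and 3 of sec17 differed by 0.17 in log2 with an SE of 0.866, which did not pass, although their changes in points were 69.0 and 10.7. A second comparison, chosen after seeing the data, set the shares of 2 introns side by side within 1 library by Fisher's exact test. At 25 °C the share differed in 7 of the 15 pairs, beside 24.2% of all pairs, and at 34 °C in 10 of 15, beside 55.5%. The 7 pairs at 25 °C were the 3 of sec17 and the 4 that hold intron 5 of vti1. At 34 °C sec17 intron 3 lay below introns 1 and 2 (adjusted p = 8.32e-20 and 1.76e-07, exact test), and introns 1 and 2 did not pass (adjusted p = 0.0553, exact test). Intron 3 of sec17 thus had the lowest share at both temperatures.

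The change in read number by library totals went separate ways in these genes. Counts were divided by the library totals, and ratios are 34 over 25 °C with an exact 95% interval for counting error. Without replicates they carry no test, and in a culture fewer cells with a transcript and less transcript per cell cannot be told apart. By this scaling the median measured intron had a log2 ratio of 0.47, and that of the SNARE and SNAP introns was -0.63. Reads were at least 2-fold lower in 5 of the 16 introns (9.73% of all measured introns), the 3 of sec17, that of syb1 and intron 2 of bet1, and at least 2-fold higher in 1 (27% of all), that of sft1. Without scaling, or with the median intron set to 0, 8 introns were at least 2-fold lower and 1 higher, beside 15.2% and 17.2% of all measured introns lower and 14.2% and 12.0% higher, in that order of scalings. The directions of vti1 introns 1 to 4, ykt6 and sec22 intron 2 depended on the scaling. All others kept theirs under the 3 scalings. By library totals 9 introns were lower and 7 higher, beside 31.4% of all measured introns lower. Without scaling, or with the median intron set to 0, 15 were lower and 1 (sft1) higher, beside 45.3% and 50% of all lower.

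**Figure D2:**
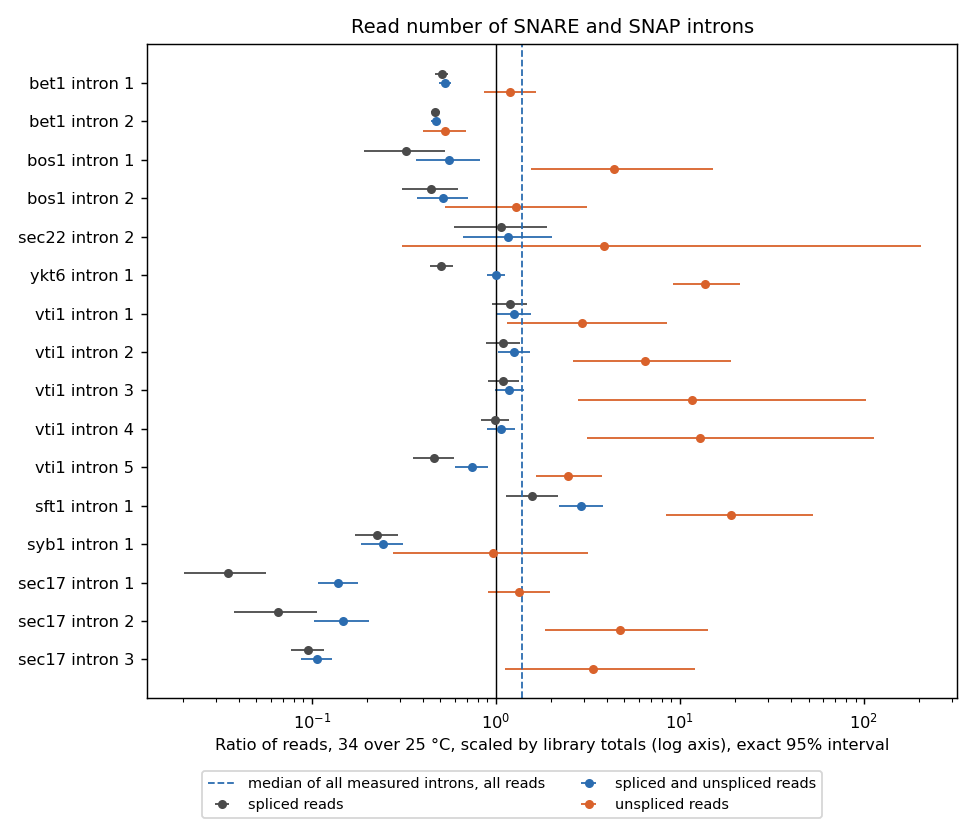
Ratio of reads at 34 over 25 °C, scaled by library totals, on a log axis, for spliced reads (grey), all reads (blue) and unspliced reads (orange) of each measured intron, with exact 95% intervals; the dashed line is the median of all measured introns for all reads. All reads of the 3 sec17 introns sit between 0.106 and 0.147, and that of sft1 at 2.89.

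sec17 had the largest loss. Its introns 1, 2 and 3 had 684, 342 and 1430 reads at 25 °C and 74, 39 and 118 at 34 °C. Scaled by library totals they were 7.16-fold (5.63 to 9.23), 6.80-fold (4.87 to 9.73) and 9.39-fold (7.78 to 11.4) lower at 34 °C, and at most 0.837% of measured introns had a lower ratio than any of them. Spliced reads alone were 28.7-fold (17.8 to 49.5), 15.3-fold and 10.5-fold lower. Unspliced reads were not lower, with ratios of 1.34 (0.907 to 1.97), 4.73 (1.86 to 14.3) and 3.35 (1.12 to 12.0). The 3 introns report on 1 transcript and are not independent.

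syb1 had 383 reads at 25 °C and 72 at 34 °C, 4.12-fold (3.20 to 5.38) lower after scaling, with spliced reads 4.40-fold lower. The unspliced share of those 72 reads was 8.33% (3.12 to 17.3), from 6 unspliced reads. Whether the lower read number is linked to retention was not tested. bet1 intron 1 went from 2308 to 952 reads, 1.88-fold lower (1.74 to 2.03), and intron 2 from 4818 to 1756, 2.126-fold lower (2.01 to 2.25). bos1 was 1.79-fold (1.21 to 2.70) and 1.94-fold (1.42 to 2.69) lower at its introns 1 and 2. Among the genes of the endoplasmic reticulum and Golgi step, bet1 and bos1 thus had lower scaled read numbers, and the middle intron of sec22 had a ratio of 1.16 (0.664 to 2.02).

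In the Golgi and vacuole group, sft1 had more reads under all 3 scalings, while ykt6 and vti1 introns 1 to 4 had ratios of 1.00 to 1.26 by library totals and ratios below 1 by the other scalings. sft1 went from 79 to 177 reads, a ratio of 2.89 (2.21 to 3.82), with 1.57 (1.14 to 2.17) for spliced and 18.9 (8.36 to 53.0) for unspliced reads. ykt6 had 718 and 557 reads, a ratio of 1.00 (0.895 to 1.12), but its spliced reads were 1.98-fold lower (1.71 to 2.28) and its unspliced reads had a ratio of 13.7 (9.20 to 21.1). In vti1, introns 1 to 4 had ratios from 1.07 to 1.26, and intron 5 had 0.739 (0.604 to 0.901). For spliced reads alone the ratio of vti1 intron 5 was 0.461 (0.355 to 0.593), and its interval lies below those of introns 1 to 4, of which the lowest begins at 0.829. Over the set and by library totals, spliced reads were at least 2-fold lower in 8 of 16 introns, beside 29.8% of all measured introns. Introns 1 to 3 of sec17 and introns 1 and 2 of bos1 are among them, and introns of 1 gene are not independent. The introns of ykt6 (1.98-fold) and bet1 intron 1 (1.97-fold) fell just short, and spliced reads were not counted under the other scalings.

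**Figure D3:**
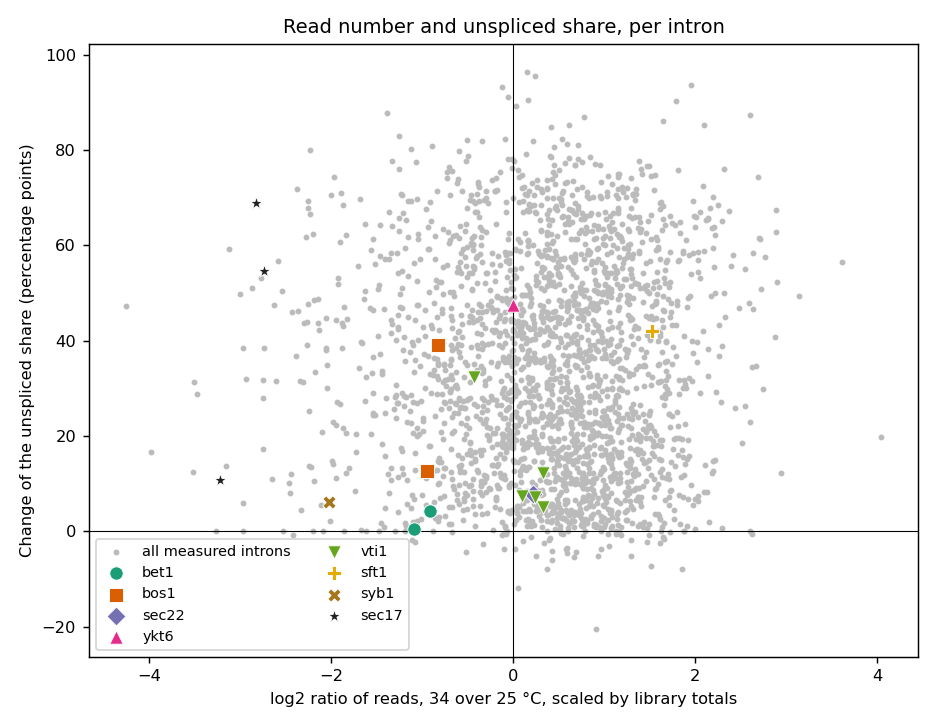
Each point is a measured intron, with the log2 ratio of its reads (34 over 25 °C, scaled by library totals) on the x axis and the change of its unspliced share in percentage points on the y axis; SNARE and SNAP genes are marked by symbol over all 2508 introns in grey. The sec17 introns lie far to the left at 10.7 to 69.0 points, syb1 to the left at 6.24 points, and sft1 to the right at 42.1 points.

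The introns were compared in features that did not enter their choice. All 16 begin with GT, end with AG and lie between coding exons. Their median length was 52.5 bases, from 37 to 164, beside 58 (quartiles 47 and 95) for 2406 placed measured introns. The tract that U2AF reads, taken as the 14 bases that end 3 bases before the exon, held 6 to 10 pyrimidines with a median of 8, which is also the median of all. A branch motif match was present in 12 of the 16, beside 77.3% of all placed introns. The 4 introns without one were those of ykt6, bos1 intron 1, vti1 intron 4 and sec17 intron 1, with changes from 7.43 to 69.0 points, and the 12 with one had changes from 0.483 to 54.7. Over all placed introns the median change was 33.6 points without a match and 32.2 with one.

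The same 5' splice site went with quite different changes. GTATGT begins 8 of the 16 introns, and their changes run from 4.31 points in bet1 intron 1 to 47.6 points in ykt6, with a median of 12.4, beside 29.3 (quartiles 13.3 and 48.7) over all 514 introns with that site. GTAAGT begins vti1 introns 3 and 4 and sec22 intron 2, whose changes of 7.18, 7.43 and 7.78 points lie below the lower quartile of 10.7 points over 674 introns. That of sec22 was not called, and its interval of -7.41 to 24.9 points takes in the median of 22.9 over the 674. Intron 1 of sec17 begins with GTATGC, and its 69.0 points lie above the upper quartile of 59.0 over 92 introns, which its interval of 58.0 to 77.3 takes in. Intron 2 of bet1 begins with GTAAGA, and its 0.483 points lie below the lower quartile of 11.9 over 174 introns.

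Genes that work beside these SNAREs were taken from 6 lists of membrane traffic genes, 93 symbols, of which 87 matched an annotated gene. Over their 73 measured introns 66 were called higher and 0 lower, and each count of calls below is to be read against the 82.6% called higher over all measured introns. Other SNAREs had 5 of 5 introns called higher, with a median change of 17.4 points. Among them intron 2 of ufe1, a syntaxin of the endoplasmic reticulum, was the deepest, from 6.53% of 1133 reads to 23.9% of 877. Intron 1 of ufe1 had the smallest change, 13.9 points, and intron 1 of vsl1 the largest, 58.1 points. The NSF and SM protein list, the direct partners of SNAREs, had 7 of 7 higher and a median of 48.3 points. Changes ran from 15.2 points in sly1 intron 1, the deepest, to 75.5 points in vps45 intron 2, which had 20 reads at 34 °C. All 7 were introns of the SM protein genes sly1, vps33 and vps45, and no intron of the NSF gene was among them. Sly1 and Vps45 are SM proteins, which clasp SNARE bundles at the Golgi and endosome.

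COPII coat and cargo genes had 13 of 13 higher and a median of 24.1 points, with sec13 intron 1 the deepest (17.7 points), emp24 intron 2 the largest (57.9) and erv14 intron 2 the smallest (4.55). COPI and Arf genes had 8 of 10 higher and a median of 21.1 points. In that list arf1 intron 1, the deepest, rose by 15.6 points and glo3 intron 2 by 95.7 points, and sec21 intron 2 had a difference of -4.63 points (-12.0 to 1.79) that was not called. Tethers, which hold a vesicle before SNAREs pair, had 15 of 16 higher and a median of 57.4 points. Of these bet3 intron 3 was the deepest (58.9 points), cog5 intron 1 the largest (67.3) and trs33 intron 3 the smallest, with 21 and 24 reads in the libraries and 1 of each unspliced. Rab GTPases and partners had 18 of 22 higher and a median of 23.6 points, with ypt1 intron 2 the deepest (19.3 points), ypt5 intron 8 the largest (53.2) and ypt7 intron 2 the smallest (1.107, not called). Scaled by library totals, reads were at least 2-fold lower in 9 of the 22 Rab introns, beside 9.73% of all measured introns, and in 0 introns of the other 5 lists. Under both other scalings, counted after seeing the data, they were in 13 of the 22, beside 15.2% and 17.2% of all measured introns. The NSF and SM, COPII and tether lists then held 1 such intron each, and COPI and Arf 1 with the median intron set to 0. The 22 Rab introns belong to 7 genes, with introns 1 to 8 of ypt5 among them, and introns of 1 gene are not independent.

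**Figure D4:**
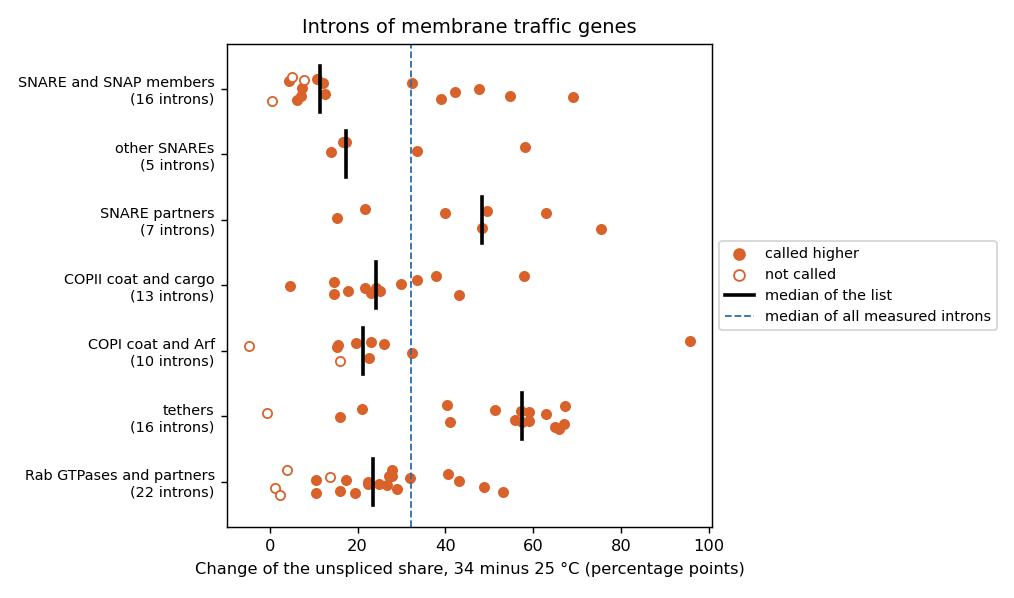
Change of the unspliced share in percentage points for each measured intron of the SNARE and SNAP genes and of 6 other lists; filled points were called higher, open points were not called, black bars are list medians and the dashed line is the median of all measured introns, 32.3 points. List medians run from 11.4 points for the SNARE and SNAP introns to 57.4 points for tethers.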

How the data were processed

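PolyA RNA was sequenced from 2 libraries, 1 at 25 °C and 1 at 34 °C, grouped by their titles. Per the file headers, the authors deposited, intron by intron, unscaled whole-number counts of reads of either kind, and a ratio, spliced over unspliced, in which a count of 0 is taken as 1. All 5374 deposited ratios per library matched the counts within a relative tolerance of 1e-06, and they were not used further. TopHat and SAMtools are named in the submitters' processing notes. Not given in the sources used here were their versions, the genome build, the counter, whether strand was used, and what made a read unspliced. If unspliced reads were taken over the whole intron, longer introns would collect more of them.

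Members and lists were chosen with earlier results of these data known. Every member intron is described, and of each pathway list the deepest measured intron and those with the largest and smallest change. Fisher's exact tests, Benjamini-Hochberg adjustment over 2508 introns and intervals were computed with Python 3.11.15 and scipy 1.17.1, and the tests were checked on simulated data. For 1825 pairs of introns in the same gene, log odds ratios (0.5 added to every count) were subtracted and divided by the SE, and p was adjusted over the pairs. Log2 read ratios had a pseudocount of 1. Introns were placed in 2418 genes whose intron number equals that of exactly 1 RefSeq structure (ASM294v3, which may not be the authors' annotation), numbered from the left end of the chromosome. In minus-strand genes the rank correlation within genes of 5' splice site score and change was -0.226 with this numbering and 0.0466 with the reverse. Among members the choice affects only introns 1 and 3 of sec22. Alternatives were other read minimums, the smaller deposited table, introns free of overlapping exons, another test and other scalings.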

Additional observations from a re-analysis of the deposited data

How the results depend on the processing

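Over all introns, 1195 were called higher with a minimum of 50 reads, 1177 among the introns of the smaller deposited table and 846 among introns that no annotated exon of another gene overlaps, beside 2071, and fewer introns were tested in each. The last choice leaves 7 SNARE and SNAP introns, of which 5 were called higher. No direction of a share and no call of a member intron changed in any setting where that intron was tested. A minimum of 50 reads left 13, without bos1 intron 1, sec17 intron 2 and sec22 intron 2, and the precision of these is limited by 38, 39 and 27 reads at 34 °C. Unspliced reads alone had log2 ratios of 0.0052 for syb1 and 0.42, 2.08 and 1.59 for sec17 introns 1, 2 and 3, where all reads were at least 2-fold lower. In bet1 intron 2, where all reads were also at least 2-fold lower, unspliced reads were lower too. Their log2 ratio was -0.909, a ratio of 0.528 (0.400 to 0.693). The value for syb1 owes its sign to the pseudocount, since the ratio of its scaled reads was 0.968. Unspliced reads alone were also above 0, and all reads below, in bet1 intron 1 (0.26), bos1 introns 1 and 2 (1.95 and 0.37) and vti1 intron 5 (1.29). Within single libraries, 7 pairs of introns differed in share at 25 °C and 10 at 34 °C, beside 1 by log odds ratio; these measure levels and not changes. No paired analysis was possible because each temperature has 1 library.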

Other observations

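Retained introns can also be read for what they would do to the protein. In each of the 16 measured SNARE and SNAP introns the reading frame carried in from the start codon meets a stop codon inside the intron, beside 87.8% of 2357 measured introns between coding exons. In bet1 intron 1 the frame enters after 3 of 117 residues and stops after 14 codons. In sec17 intron 1 it enters after 11 of 289 residues and stops after 9 codons. In vti1 intron 5 it enters after 185 of 214 residues and stops after 1 codon, so most of the coding sequence lies before it. In syb1 the intron comes after 67 of 121 residues, and in sft1 after 39 of 91. These are properties of the annotated sequence, and no protein was measured.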
